A study of Mus musculus with 3 samples.

Results

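The immunoglobulin genes of the mouse were followed through 3 polyA-selected RNA libraries of activated regulatory T cells, a CD4 T cell subset that restrains immune responses and does not itself make antibody. The genes were taken by symbol: every heavy, kappa and lambda variable gene (Ighv, Igkv, Iglv), every joining gene (Ighj, Igkj, Iglj) and the 12 named constant genes. The rule found 374 members among 55536 annotated genes: 185 Ighv, 160 Igkv, 3 Iglv, 14 joining genes, 8 heavy-chain constant genes, Igkc and 3 Iglc genes. The source was a male mouse of the strain Foxp3CreERT2 x Rosa26YFP, aged 4 months, in which an inducible Cre sits at Foxp3 and a fluorescent reporter at Rosa26. The labels number the libraries as technical replicates 1, 2 and 3 of 1 biological replicate, and give no treatment and no control group. An SD with n = 3 is therefore the spread between these libraries, not between animals, and which steps the libraries share is not stated. How the cells were sorted is not stated in the labels. Counts assigned to genes were 10981924, 9700630 and 6667391 in replicates 1, 2 and 3, so a count of 0 allowed up to 3 counts, or 0.273, 0.309 and 0.450 CPM (counts scaled to the library total). None of the 11 T cell and regulatory T cell markers was at 0 in any library. The 6 T cell markers summed to 7890, 7850 and 5027 TPM, lowest in replicate 3, where the immunoglobulin genes were highest, and the part of this in the results was not tested. The 5 regulatory T cell markers summed to 1481, 1579 and 1534 TPM, with Foxp3 (29.5, 28.7 and 49.8 TPM) and Ctla4 (190, 250 and 612 TPM) highest in replicate 3 and Ikzf2 (358, 441 and 268 TPM), Tnfrsf18 (663, 587 and 368 TPM) and Il2ra (239, 272 and 237 TPM) lowest there.

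An antibody is a pair of heavy and light chains, and each chain is a variable domain joined to a constant domain. A B cell joins 1 V gene (with a D gene in the heavy chain) to 1 J gene and passes the joined gene to its daughters. The V genes seen in RNA depend on which families of cells contributed and on their RNA per cell, and are not a count of families. The heavy-chain constant gene sets the isotype: Ighm and Ighd are used before class switching, and the Ighg genes, Ighe and Igha after it. Light chains use the kappa locus or the lambda locus, and in mice kappa is used far more often. Plasma cells, the secreting end stage of the B lineage, carry immunoglobulin RNA at very high levels per cell. Unrearranged Ighm transcripts that hold no V domain are also known in lymphocytes. In bulk libraries such as these, fewer cells of a type and less RNA per cell cannot be told apart.

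The V genes that led a chain in a library are shown first, because the concentration and overlap of V counts given later turn on them. Ighv9-3 led the heavy chain in replicates 1 and 2 and Ighv5-4 in replicate 3. Igkv5-39, Igkv8-19 and Igkv5-48 led the kappa chain in replicates 1, 2 and 3, and Iglv1 led the lambda chain in all 3. The last 300 coding bases of each are given from the GENCODE M21 transcripts on mm10, written 5′ to 3′ on the sense strand, and all 6 genes lie on the minus strand. Capitals mark the last in-frame TGT codon, the conserved cysteine after which the V-encoded start of the third complementarity-determining region begins.
Ighv9-3: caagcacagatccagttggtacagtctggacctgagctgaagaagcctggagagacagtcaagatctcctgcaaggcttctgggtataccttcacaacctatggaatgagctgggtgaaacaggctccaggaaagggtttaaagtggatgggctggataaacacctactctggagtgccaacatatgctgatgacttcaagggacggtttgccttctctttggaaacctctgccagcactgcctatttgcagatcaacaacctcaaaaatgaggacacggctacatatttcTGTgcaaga
Ighv5-4: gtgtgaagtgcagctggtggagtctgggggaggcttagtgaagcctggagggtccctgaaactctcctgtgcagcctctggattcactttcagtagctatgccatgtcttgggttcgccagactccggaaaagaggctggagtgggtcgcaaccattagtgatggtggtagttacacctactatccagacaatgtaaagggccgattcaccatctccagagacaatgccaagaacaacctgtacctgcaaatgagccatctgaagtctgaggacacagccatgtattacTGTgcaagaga
Igkv5-39: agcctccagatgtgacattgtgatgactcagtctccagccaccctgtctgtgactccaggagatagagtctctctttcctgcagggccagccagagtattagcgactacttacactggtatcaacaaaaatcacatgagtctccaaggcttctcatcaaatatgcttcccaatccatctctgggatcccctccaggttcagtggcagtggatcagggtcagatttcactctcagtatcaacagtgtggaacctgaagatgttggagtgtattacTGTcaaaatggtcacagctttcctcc
Igkv8-19: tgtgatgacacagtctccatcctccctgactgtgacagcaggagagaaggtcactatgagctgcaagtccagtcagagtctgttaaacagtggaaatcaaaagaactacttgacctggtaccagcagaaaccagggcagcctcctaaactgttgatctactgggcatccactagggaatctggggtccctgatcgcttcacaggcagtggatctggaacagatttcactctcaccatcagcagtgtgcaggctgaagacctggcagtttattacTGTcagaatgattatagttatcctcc
Igkv5-48: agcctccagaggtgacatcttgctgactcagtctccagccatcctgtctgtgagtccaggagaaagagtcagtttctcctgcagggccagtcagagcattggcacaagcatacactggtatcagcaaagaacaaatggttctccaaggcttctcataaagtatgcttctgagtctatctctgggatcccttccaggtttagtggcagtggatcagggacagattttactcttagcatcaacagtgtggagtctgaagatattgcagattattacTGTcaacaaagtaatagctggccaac
Iglv1: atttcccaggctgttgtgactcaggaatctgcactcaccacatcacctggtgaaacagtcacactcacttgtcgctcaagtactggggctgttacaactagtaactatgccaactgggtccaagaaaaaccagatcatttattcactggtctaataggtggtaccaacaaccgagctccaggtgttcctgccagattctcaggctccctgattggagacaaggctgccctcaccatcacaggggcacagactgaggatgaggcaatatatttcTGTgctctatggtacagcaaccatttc

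All 6 are annotated as functional V genes. The bases shown lie at chr12:114140692-114140991 for Ighv9-3 and at chr12:113597446-113597745 for Ighv5-4. Those of the kappa genes lie at chr6:69900424-69900930 for Igkv5-39, chr6:70340876-70341175 for Igkv8-19 and chr6:69726573-69727078 for Igkv5-48, where the first and the last of these spans hold an intron. Those of Iglv1 lie at chr16:19085017-19085316. The heavy-chain leaders were distant from each other, with 133 of 344 aligned coding bases differing between Ighv9-3 and Ighv5-4 (61.3% identity). Igkv5-39 and Igkv5-48, of the same V family, were 83.5% identical, and Igkv8-19 was 69.7% identical to Igkv5-39. Reads could be divided between a leader and its closest relative, which was 94.3% identical for Ighv9-3 (Ighv9-2), 97.5% for Igkv8-19 (Igkv8-28) and 96.9% for Iglv1 (Iglv2). The deposited posterior SD of the count in the library where it led was 0.19 and 0.22 counts for Ighv9-3, 0.38 for Ighv5-4, 0.24 for Igkv8-19 and 0 for Igkv5-39 and Igkv5-48. For Iglv1 it was 0, 0.44 and 1.29 counts in replicates 1, 2 and 3.

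All members together took 0.161%, 0.138% and 0.278% of gene counts in replicates 1, 2 and 3. In summed TPM (a level per transcript length, scaled to the same total in every library) they stood at 2803, 1838 and 6743. Of these counts, Ighm alone took 68.0%, 88.8% and 33.6%. Without Ighm the members took 0.0515%, 0.0155% and 0.185%, so replicate 3 was high and replicate 2 low, and the order of the libraries stayed the same. Of the 374 members, 172 had a count above 0 in at least 1 library and the rest were at 0 in all 3. The 130 V pseudogenes took few counts, with 0, 5 and 21.04 counts, or 0%, 0.992% and 0.717% of all V counts.

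Ighm, the constant gene of IgM, had the highest mean level of the heavy-chain constant genes. Its TPM was 943, 1128 and 811 (961 ± 159, SD, n = 3), from 12032, 11852 and 6237 counts. The highest library exceeded the lowest 1.31-fold in CPM, with a 95% interval from counting error of 1.27 to 1.35. Ighd, the constant gene of IgD, which is spliced from the same primary transcript, was at 22.0, 13.5 and 12.9 TPM. Ighm thus exceeded Ighd 42.9-, 83.6- and 62.8-fold on the TPM scale. Replicate 2, with the fewest counts from all other members, had the highest Ighm.

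Ighm lies at chr12:113418558-113422730 and the other heavy-chain constant genes beyond it on the same strand. The IgG genes were spread far more widely. Ighg1 was at 80.6, 0.32 and 255 TPM, Ighg2b at 64.1, 1.04 and 196 TPM, and Ighg3 at 32.3, 1.51 and 102 TPM. For these 3 genes replicate 3 was highest, replicate 1 in between and replicate 2 close to 0. Ighg2c followed another order, with 1.24, 1.59 and 335 TPM, so that replicate 1 stood with replicate 2 and replicate 3 alone was high. Igha, the constant gene of the mucosal isotype, followed Ighg2c, with 0.36, 0.90 and 16.02 TPM from 3, 9 and 84 counts. In CPM, replicate 3 exceeded replicate 1 in Igha 46.1-fold (15.2 to 228). Ighe, the constant gene of IgE, was the lowest, with 4, 0 and 16 counts, and was at least 7.76-fold higher in replicate 3 than the limit of 3 counts in replicate 2. The plot of constant genes shows these levels for every library.

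**Figure D1:**
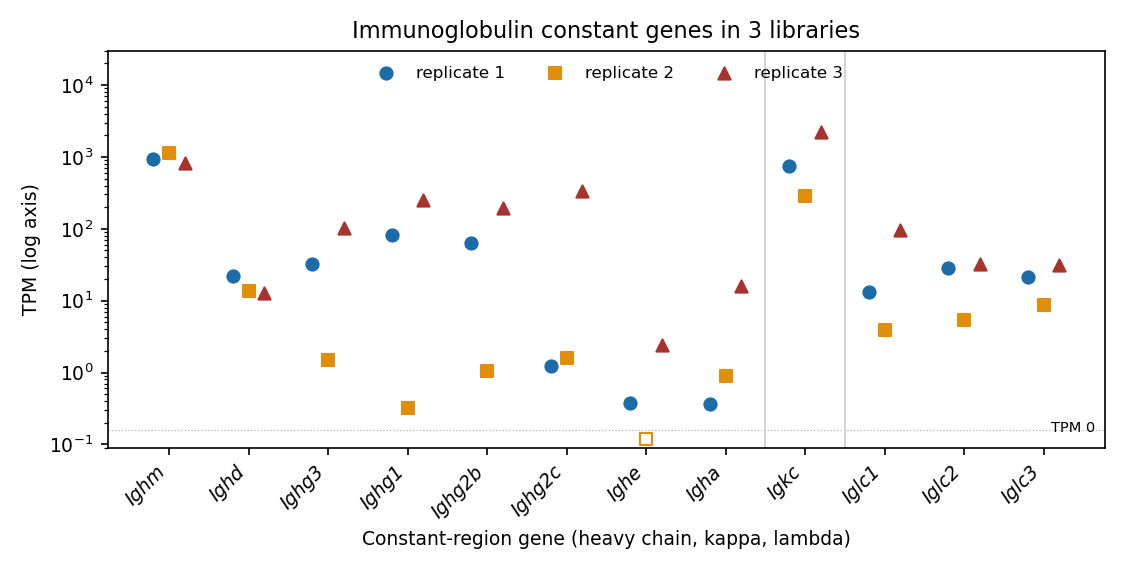
TPM (log axis) of the 12 constant genes in each of the 3 libraries, 1 point per library, with the open square for Ighe in replicate 2 marking a TPM of 0. Ighm and Ighd lay close together in the 3 libraries, while Ighg1 ran from 0.32 TPM in replicate 2 to 255 TPM in replicate 3.

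The isotype mix is the share of each gene among the heavy-chain constant counts, which summed to 13846, 12062 and 10949. Ighm held 86.9%, 98.3% and 57.0% of them (80.7% ± 21.3, SD, n = 3). The 6 switched constant genes held 10.8% (exact 95% interval 10.3 to 11.4), 0.398% (0.294 to 0.527) and 42.0% (41.1 to 42.9). The 3 intervals lay apart, and they cover counting error only, since these reads carry no molecular identifiers and are not independent. Nearly all of the switched share was IgG, at 10.8%, 0.323% and 41.1%. By TPM, which corrects for transcript length, the switched share was 15.7%, 0.467% and 52.3%.

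**Figure D2:**
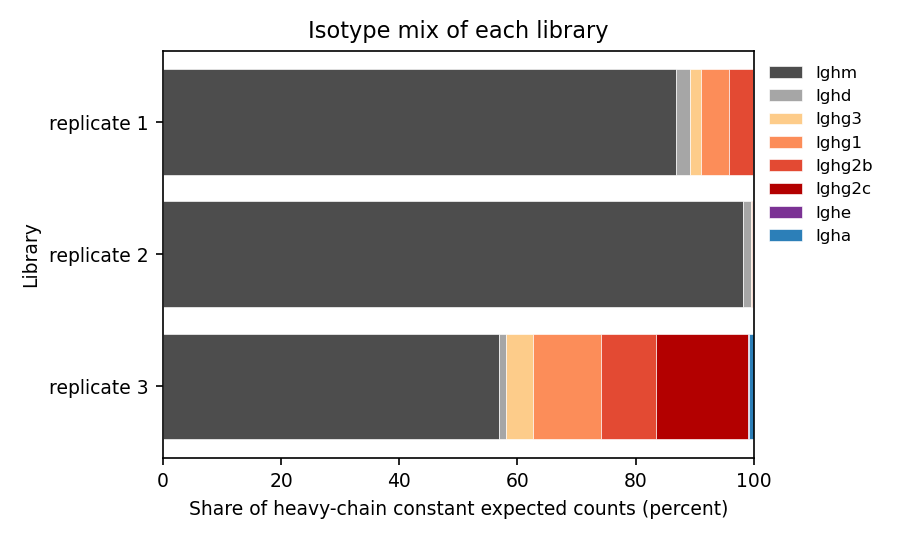
Share (percent) of each heavy-chain constant gene among the heavy-chain constant expected counts, 1 bar per library. Ighm filled 98.3% of the bar of replicate 2 and 57.0% of that of replicate 3, where Ighg2c was the widest switched segment at 15.7%.

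The subclass mix within IgG also differed between the 2 libraries that held many IgG counts. Replicate 1, with 1492 IgG counts, had 43.8% Ighg1, 37.3% Ighg2b, 18.2% Ighg3 and 0.739% Ighg2c. Replicate 3, with 4497, had 28.2% Ighg1, 22.4% Ighg2b, 11.3% Ighg3 and 38.2% Ighg2c. The interval for Ighg2c ran from 0.369 to 1.32% in replicate 1 and from 36.8 to 39.6% in replicate 3. Replicate 2 held 39 IgG counts, and its Ighg2c share of 28.2% had an interval from 15 to 44.9%. Ighg2b and Ighg2c, the closest pair of subclasses, were 85.9% identical over their coding bases, and the other pairs were 76.2 to 78.1% identical.

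Each heavy-chain constant gene makes a secreted form and a membrane form by a choice between 3′ exons. For Ighm the coding sequences are shared over 1305 bases and then part, and the tails after that point, at chr12:113420867-113420928 and chr12:113418826-113419068, are shown because the counts of the 2 forms rest on the exons that carry them. Capitals mark the stop codon. Ighm-201 ends in the secretory tail, and Ighm-202 runs on into the membrane exons.
Ighm-201: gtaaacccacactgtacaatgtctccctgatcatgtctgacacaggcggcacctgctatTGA
Ighm-202: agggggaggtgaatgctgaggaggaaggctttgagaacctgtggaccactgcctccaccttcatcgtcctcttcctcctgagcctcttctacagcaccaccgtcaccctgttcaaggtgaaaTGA

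The secreted form took 45.6%, 47.0% and 56.6% of Ighm TPM. In levels, Ighm-201 was at 430, 530 and 459 TPM and Ighm-202 at 513, 598 and 353 TPM, so the membrane form was the higher of the pair in replicates 1 and 2 and the lower in replicate 3. The split between the forms was estimated by the deposited quantification from reads that largely fall in shared exons. IgG differed from Ighm: in replicate 3 the secreted forms took 99.7% of Ighg1 TPM, 99.8% of Ighg3 and 100% of Ighg2b and Ighg2c. In replicate 1 they took 99.5% of Ighg1, 97.6% of Ighg2b and 97.5% of Ighg3. Ighg2c in replicate 1 was the exception at 42.7%, on 11 counts. Ighd was nearly all in the membrane form, with 2.77% secreted in replicate 1 and 0% in the other two libraries.

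Igkc, the only kappa constant gene, lies on chromosome 6 and was at 746, 282 and 2215 TPM. Replicate 3 exceeded replicate 2 8.59-fold in CPM (7.94 to 9.29). Igkc overlaps, on the same strand, the annotated locus of the long noncoding gene Gm30211, which had 4, 4 and 15 counts. The order of Ighm and Igkc was not the same in every library: Ighm stood at 126% and 400% of the Igkc TPM in replicates 1 and 2 and at 36.6% in replicate 3. The lambda constant genes were lower. Iglc1 was at 13.4, 3.85 and 96.2 TPM, Iglc2 at 28.3, 5.40 and 32.1 TPM and Iglc3 at 21.4, 8.72 and 31.8 TPM. Iglc1 in replicate 3 stood far above its other values, while Iglc2 and Iglc3 were of like size in replicates 1 and 3.

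The kappa to lambda ratio of the constant counts was 14.3 in replicate 1 (95% interval 12.2 to 16.9), 19.7 in replicate 2 (14.2 to 28.0) and 16.7 in replicate 3 (14.8 to 19.0). The mean was 16.9 ± 2.69 (SD, n = 3), and the 3 intervals overlapped, although Igkc itself differed 8.59-fold. By TPM the ratio was 11.8, 15.7 and 13.8. The makeup of lambda was not so even, since Iglc1 took 20% of the lambda constant counts in replicate 1 (14.2 to 26.9), 21.1% in replicate 2 (9.55 to 37.3) and 57.2% in replicate 3 (51.0 to 63.2). Taken from V genes in place of constant genes, the ratio was 52.1, 38.9 and 9.96, on 17, 8 and 179 Iglv counts. Its interval in replicate 3 (8.54 to 11.7) lay below those of replicate 1 (32.4 to 89.9) and replicate 2 (19.5 to 90.8).

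Iglc2 and Iglc3 are shown because reads can be hard to divide between them. They differ at 11 of 317 aligned coding bases (96.5% identity), marked in capitals in the last 300 coding bases of each, whereas Iglc1 was 74.7% and 75.6% identical to them. Their sum, which does not depend on that division, exceeded Iglc1 in replicates 1 and 2.
Iglc2: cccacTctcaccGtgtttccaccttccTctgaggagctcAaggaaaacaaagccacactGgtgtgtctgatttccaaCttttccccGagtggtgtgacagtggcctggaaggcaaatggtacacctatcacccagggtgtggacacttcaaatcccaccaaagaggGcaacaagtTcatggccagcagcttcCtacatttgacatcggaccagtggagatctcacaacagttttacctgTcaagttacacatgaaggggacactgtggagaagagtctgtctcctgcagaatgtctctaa
Iglc3: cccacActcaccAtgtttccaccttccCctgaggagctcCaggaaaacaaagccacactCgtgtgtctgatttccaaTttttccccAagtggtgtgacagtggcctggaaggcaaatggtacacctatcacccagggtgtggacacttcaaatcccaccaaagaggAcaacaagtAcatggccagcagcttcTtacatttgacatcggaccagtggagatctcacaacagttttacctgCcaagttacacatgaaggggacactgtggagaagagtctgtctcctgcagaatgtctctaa

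The V counts were concentrated on a few genes in replicates 1 and 2 and spread over many in replicate 3. The measure was the effective number of genes, the inverse of the chance that a pair of counts drawn from a library fall on the same V gene, which is 1 where a single gene holds everything. For Ighv it was 5.48, 1.91 and 29.7, and for Igkv 8.74, 3.25 and 37.2. In both chains replicate 2 was the most concentrated and replicate 3 the least. Iglv, with only 3 genes, was at 1.28, 1.33 and 1.20. The V genes of the T cell receptor, measured in the same way as a reference, differed little between the libraries: Trbv was at 15.6, 15.9 and 15.4 and Trav at 55.3, 55.2 and 56.2.

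Replicate 3, the least concentrated, had the fewest gene counts in all. Thinned to 185 Ighv counts, the total of replicate 2, the libraries would show 22.4, 23.0 and 43.3 Ighv genes. Thinned to 310 Igkv counts they would show 34.5, 32.0 and 53.0 Igkv genes. At equal counts replicates 1 and 2 thus held about as many genes as each other, and what set replicate 2 apart was the share of its leading genes. The 10 highest Ighv genes took 92.0%, 93.0% and 46.7% of the Ighv counts, and the 10 highest Igkv genes took 87.6%, 91.6% and 39.4% of the Igkv counts.

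**Figure D3:**
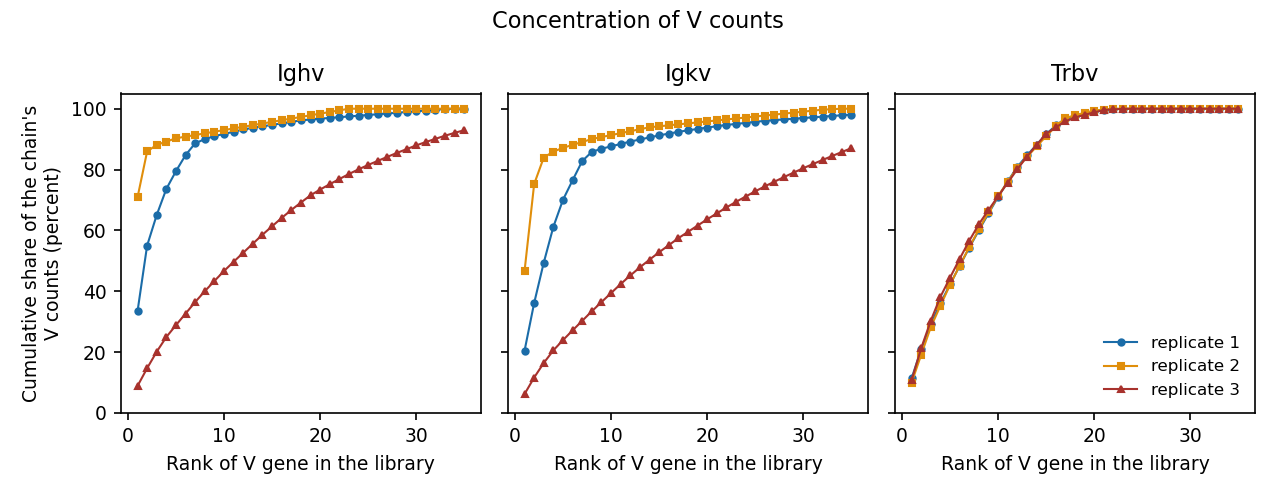
Cumulative share (percent) of a chain's V counts against the rank of the V gene within each library, for Ighv, Igkv and the T cell receptor reference Trbv, 1 line per library. The Trbv lines lie on each other, while for Ighv the first gene took 33.3%, 70.8% and 8.81% in replicates 1, 2 and 3.

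Among heavy-chain V genes, Ighv9-3 had 137, 131 and 32.7 counts, or 88.0, 98.7 and 32.2 TPM. It took 33.4% of the rounded Ighv counts in replicate 1 (exact 95% interval 28.9 to 38.2) and 70.8% in replicate 2 (63.7 to 77.2), but 3.36% in replicate 3. Ighv3-6 was next in replicate 1, with 89, 0 and 57 counts, followed by Ighv1-53, with 41.5, 0 and 34.6 counts. Replicate 2 held neither, and its next gene was Ighv1-82, with 0, 28 and 8 counts, followed by Ighv1-80 on 4 counts. In replicate 3, Ighv5-4 led with 85.8 counts against 3 and 1 in the other two libraries, or 8.82% (7.12 to 10.8). Ighv5-16 had 53 counts in replicate 3 and 0 in both others.

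Among kappa V genes, Igkv5-39 had 181, 89 and 74 counts, or 142, 75.8 and 80.7 TPM, and was the only Igkv gene with at least 10 counts in all 3 libraries. It led replicate 1 at 20.4% (17.8 to 23.2) and was second in replicate 2 at 28.6%. Igkv4-63 had 139, 0 and 0 counts and Igkv4-55 had 118, 0 and 1.06, so both were found almost solely in replicate 1. Igkv8-19 had 7, 145 and 1 counts, and took 46.8% of replicate 2 (41.1 to 52.5). Igkv1-117 was the third highest there, with 3.99, 27.1 and 30.8 counts. Igkv5-48 with 110 counts, Igkv12-44 with 97 and Igkv6-23 with 85.4 led replicate 3, and each had 7 counts or fewer in the other libraries. Iglv1 had 15, 7 and 163 counts, or 88.2%, 87.5% and 91.1% of Iglv counts, while Iglv2 had 2, 0 and 9.27 and Iglv3 had 0, 1 and 7.

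**Figure D4:**
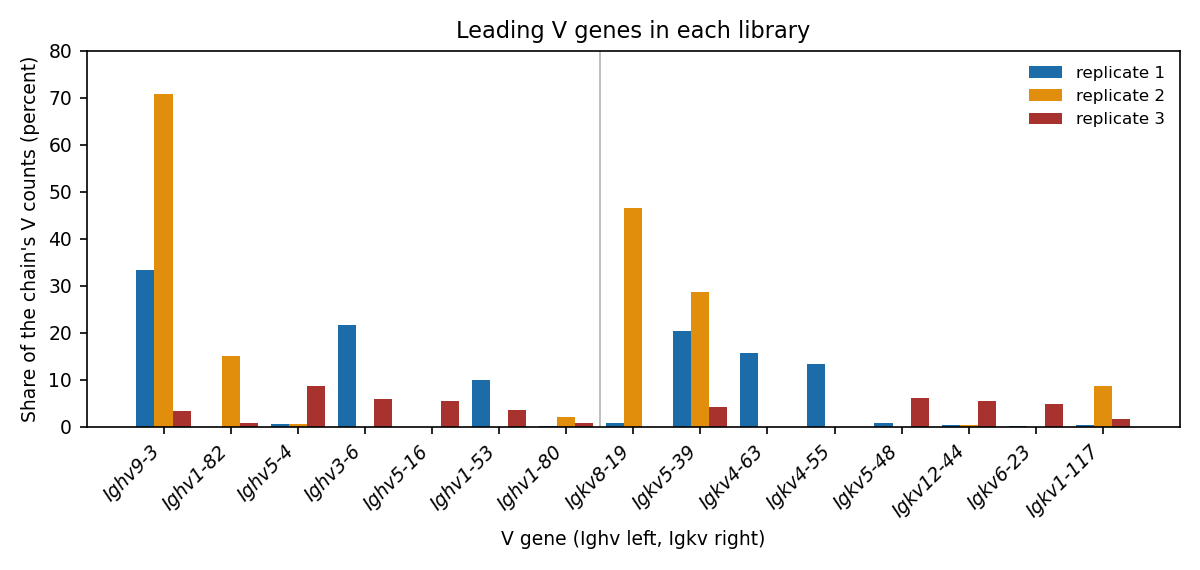
Share (percent) of a chain's V counts held by the 7 Ighv and 8 Igkv genes that were among the 3 highest of their chain in at least 1 library, with 1 bar per library. Ighv9-3 and Igkv5-39 have a bar in every library, and Igkv8-19 took 46.6% in replicate 2 and under 1% in the others.

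The libraries shared few V genes. With at least 10 counts taken as present, 7, 2 and 33 Ighv genes and 8, 3 and 45 Igkv genes were present in replicates 1, 2 and 3. Ighv9-3 alone of 35 Ighv genes present anywhere, and Igkv5-39 alone of 51 Igkv genes, were present in all 3. For Trbv it was 21 of 22 genes, and for Trav 52 of 88. The shared share, the sum over genes of the smaller of the 2 shares, was 36.4% between replicates 1 and 2 for Ighv, 26.5% between 1 and 3 and 11.5% between 2 and 3. For Igkv these were 28.3%, 21.04% and 17.5%, against 94.4%, 89.1% and 90.4% for Trbv. Presence depends on depth of the chain, so the shares describe these libraries and have no test.

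By V family, Ighv9 took 33.8%, 70.8% and 8.62% of Ighv counts, nearly all of it Ighv9-3 in replicates 1 and 2. Ighv1, the family with the most genes (93), took 37.0%, 23.2% and 41.4%. Ighv5 took 1.46%, 1.62% and 18.9%, and Ighv3 took 21.7%, 0% and 7.49%. Among kappa families, Igkv4 took 42.4%, 3.54% and 15.8%, Igkv8 took 2.60%, 47.3% and 7.63%, and Igkv5 took 21.3%, 28.9% and 11.7%. Igkv4 was the highest kappa family in replicates 1 and 3, and Igkv8 in replicate 2.

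Position along the locus was not part of the choice of members. The 56 functional Ighv genes nearest to the J genes, 49.6% of 113, held 59.4% (54.4 to 64.2), 76.9% (70.1 to 82.8) and 54.5% (51.3 to 57.7) of the functional Ighv counts. The nearest 50 of 100 functional Igkv genes held 54.5%, 83.8% and 53.8% of the Igkv counts. In replicate 2 a single gene made up most of the counts of these J-proximal genes, of which Ighv9-3 held 93.6% and Igkv8-19 held 56.0%. Ighv9-3 also held 56.1% of the J-proximal Ighv counts in replicate 1, and 6.27% in replicate 3. Functional Igkv genes that lie on the strand opposite to Igkc, and so join by inversion, are 62 of 100, and they held 74.0%, 84.8% and 61.9% of counts. These shares too rest on leading genes: in replicate 2, 145 of the 262 counts were of Igkv8-19 and 89 of Igkv5-39. Some count was found on 34, 20 and 58 of the 113 functional Ighv genes and on 51, 32 and 64 of the 100 functional Igkv genes.

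A transcript of a rearranged chain carries 1 V domain and 1 constant domain, so V and constant counts can be set against each other. For kappa, V counts were 37.5% of Igkc counts in replicate 1 (34.7 to 40.6), 41.6% in replicate 2 (36.3 to 47.5) and 40.4% in replicate 3 (38.2 to 42.7), and the intervals overlapped. For the heavy chain, Ighv counts were 2.97% (2.68 to 3.27), 1.53% (1.32 to 1.77) and 8.90% (8.32 to 9.50) of the heavy-chain constant counts, and these intervals lay apart. By TPM the kappa values were 77.8%, 86.0% and 72.9% and the heavy-chain values 22.9%, 12.5% and 50.6%. The heavy-chain value was lowest in replicate 2, where Ighm held its largest share. Against the heavy-chain constants without Ighm, Ighv TPM was 130%, 760% and 95.3%. Ighv TPM was 45.1%, 59.0% and 54.2% of Igkv TPM, a narrower range than that of Ighm over Igkc. For lambda, V counts were 10.3% (5.86 to 17.0), 21.1% (8.48 to 45.8) and 67.8% (55.8 to 82.3) of constant counts, and replicate 3 stood apart from both others.

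**Figure D5:**
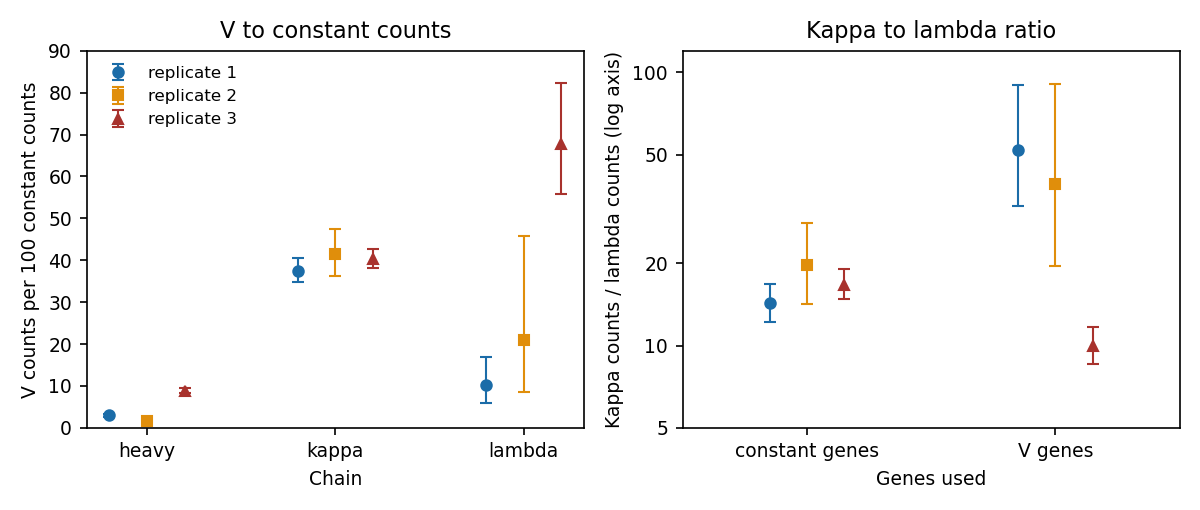
Left, V counts per 100 constant counts for the heavy, kappa and lambda chains; right, the ratio of kappa to lambda counts (log axis) from constant genes and from V genes; points are libraries and bars are 95% intervals of counting error. The kappa points sit between 37.5 and 41.6, and the kappa to lambda ratio by constant genes between 14.3 and 19.7, while the heavy-chain, lambda and V-gene values of replicate 3 lie away from the others.

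The J genes encode the last residues of the variable domain. Their gene models are 38 to 100 bases long, under or at the lower end of the labelled fragment sizes of 100 to 300 bp. All 14 were listed at 0 in the main quantification in every library, so their absence there is no measure of J use. The 4 Ighj coding segments are shown, with capitals on the conserved TGGGGN motif (N is any base), because the other deposited quantifications do count them.
Ighj1: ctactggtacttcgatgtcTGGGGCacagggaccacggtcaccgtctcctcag
Ighj2: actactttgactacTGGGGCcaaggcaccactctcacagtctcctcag
Ighj3: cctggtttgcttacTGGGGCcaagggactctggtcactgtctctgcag
Ighj4: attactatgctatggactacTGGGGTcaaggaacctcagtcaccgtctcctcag

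In the deposited gene counts on the M4 annotation, Ighj1 had 110, 110 and 101 counts, Ighj2 had 70, 16 and 129, Ighj3 had 8, 19 and 50 and Ighj4 had 70, 19 and 61. Ighj1 was the highest in replicates 1 and 2 and Ighj2 in replicate 3, and Ighj1 took most of the 164 Ighj counts of replicate 2. The second quantification gave 63, 54 and 66 Ighj counts, 24, 5 and 51 Igkj counts and 1, 0 and 4 Iglj counts. Igkj5 was its highest Igkj gene, with 11, 3 and 23 counts.

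Across the whole table, each gene with a mean of at least 10 counts was tested for a difference between the 3 libraries, by a chi-square test against sampling noise with Benjamini-Hochberg adjustment. That test called 65.3% of 12997 genes, so most genes of these libraries differed by more than sampling noise. Of the 374 members 62 passed the count minimum (15 Ighv, 35 Igkv, Iglv1, 7 heavy-chain constants, Igkc and the 3 Iglc), and all 62 were called. For 43 of them the other 2 libraries averaged under 10 counts, so they passed the minimum through the library in which they were high, and the count is no support for a difference. Of the 62, 50 were highest in replicate 3, where the background was 27.8% of genes, 8 in replicate 1 (19.8%) and 4 in replicate 2 (17.8%). With the trended dispersion of edgeR added to the noise, 46 of the 62 were called, and 1.31% of all genes. This count too rests on how the 62 passed the minimum, and nothing is read from it against the background. Of these, 42 were highest in replicate 3 (1.09% of all genes), 3 in replicate 1 (0.162%) and 1 in replicate 2 (0.0539%). With 1 library left out, this model called 13 of 56 members tested without replicate 1, 23 of 60 without replicate 2 and 3 of 27 without replicate 3. The shares of all genes called were 0.315%, 0.797% and 0.101%.

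Of the 11 constant genes tested, 7 passed under that wider noise (Igkc, Iglc1, Igha and the 4 Ighg genes), against 1.31% of all genes. Of these 7, Igha had passed the minimum through replicate 3. Ighm (adjusted p = 1.00, edgeR trended dispersion), Ighd, Iglc2 (adjusted p = 0.614) and Iglc3 did not pass, although they did against sampling noise. Nor did Ighv9-3 and Igkv5-39, the V genes present in every library, and a p that misses the threshold does not show equal levels. Ighv3-6 (adjusted p = 0.234) and Ighv1-53 (adjusted p = 0.496) did not pass either. Where nothing says that libraries came from separate cultures or animals, such p-values measure only the spread between these libraries, which may be technical.

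The genes that work with immunoglobulin in B cells were read from lists. Of the 15 genes of the B cell receptor and its signalling, 13 were called against sampling noise (65.3% of all genes), 8 of them highest in replicate 1 (19.8% of all genes), and 0 under the trended dispersion. Cd81, a coreceptor subunit also made by T cells, was the highest of them, at 185, 142 and 170 TPM, and Plcg2, a phospholipase below the receptor, the lowest, at 0.84, 0.89 and 0.27 TPM. Cd79a, a signalling chain of the receptor, was at 17.5, 8.05 and 15.8 TPM, and its partner Cd79b at 60.8, 50.9 and 55.6 TPM. Pax5, the lineage factor of B cells, was at 1.73, 0.76 and 1.75 TPM. All 10 B cell markers were detected, with a summed level of 121, 84.6 and 96.7 TPM. All 10 were called against sampling noise (65.3% of all genes), 8 of them as highest in replicate 1 (19.8% of all genes), and 0 under the trended dispersion. Ms4a1, which encodes CD20, was at 13.0, 4.81 and 4.16 TPM. The other 2 markers, Ebf1 (3.51, 0.75 and 3.35 TPM) and Blk (1.82, 0.57 and 2.05 TPM), were called as highest in replicate 3 by scaled counts (27.8% of all genes). The part of B cells in the immunoglobulin results was not tested.

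Of the antibody assembly and secretion genes, 10 of 15 tested were called against sampling noise, a share near the 65.3% of all genes, and Jchain and Mzb1 also under the trended dispersion. Jchain, which joins IgM and IgA into polymers, was at 43.4, 4.70 and 69.6 TPM, and Mzb1, a chaperone of the secretory pathway of B cells, at 9.40, 4.65 and 30.0 TPM. Hspa5, the chaperone BiP, was the highest of the list at 480, 493 and 362 TPM, and Pigr, the epithelial receptor that carries IgA, was the lowest at 0.15, 0 and 0 TPM. Jchain and Mzb1 followed the order of Ighg1, Ighg2b and Ighg3, with replicate 2 lowest and replicate 3 highest, and not that of Ighg2c. The 10 plasma cell markers, which share these 2 genes with the secretion list, summed to 142, 103 and 208 TPM. Of 8 tested, 7 were called against sampling noise (65.3% of all genes). By scaled counts, 6 of these 7 were highest in replicate 3 (27.8% of all genes). None of the 10 markers was at 0 in all libraries. Of the defining markers, Sdc1, which encodes CD138, had 4, 4 and 19 counts (0.25, 0.27 and 1.38 TPM), highest in replicate 3, and Tnfrsf17, which encodes BCMA, had 0, 1 and 1 counts. The plasma cell factors Xbp1 and Prdm1 were at 43.7, 38.7 and 50.1 TPM and at 11.6, 21.5 and 20.9 TPM. Prdm1 was thus highest in replicate 2 by TPM, although it was called as highest in replicate 3 by scaled counts. Irf4, of the same list, was lowest in replicate 3, at 18.6, 17.7 and 14.8 TPM, and was called as highest in replicate 1 (19.8% of all genes). Slamf7 was at 7.41, 6.42 and 6.63 TPM and was not called. These bulk libraries do not show which cells made the RNA of Xbp1, Prdm1 and Irf4. The part of plasma cells in the immunoglobulin results was not tested.

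Of the class switching, hypermutation and V(D)J recombination genes, 10 of 15 tested were called against sampling noise, again near the 65.3% of all genes, and 0 under the trended dispersion. Rag1 and Rag2, which cut DNA for V(D)J joining, were at 0 in all 3 libraries. Xrcc6, which encodes the end-joining protein Ku70, was the highest of the list, at 39.9, 58.9 and 35.1 TPM. The 6 germinal centre markers summed to 130, 116 and 85.3 TPM, and most of this sum was Fas. Fas, the highest of them, was at 113, 100 and 78.2 TPM, and Mef2b, the lowest, at 0.21, 0 and 0.17 TPM. The part of germinal centre B cells in the immunoglobulin results was not tested. Of the surrogate light chain and pre-B list, 2 of 8 genes passed the count minimum, and both were called against sampling noise (65.3% of all genes). Il7r, the IL-7 receptor that T cells also carry, was at 92.8, 148 and 337 TPM. It was called under the trended dispersion as well (1.31% of all genes). Of 4 Fc receptor genes tested, 3 were called against sampling noise (65.3% of all genes) and 0 under the trended dispersion (1.31% of all genes). Fcmr, the IgM receptor, was at 4.73, 2.68 and 5.76 TPM, and Fcer1a, of the high-affinity IgE receptor, was at 0. Fcer2a, the low-affinity IgE receptor of B cells, was at 3.97, 3.65 and 0.44 TPM. The 6 erythroid markers, led by the globin gene Hbb-bs at 288, 2.35 and 10.2 TPM, summed to 798, 5.30 and 23.4 TPM, and the 6 myeloid markers to 22.0, 5.43 and 22.9 TPM, and the part of either in the immunoglobulin results was not tested.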

How the data were processed

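Per the file headers, the deposited gene and transcript tables hold expected counts and TPM on GENCODE M21 and mm10, computed from transcriptome alignments, with a posterior SD of each count, an estimate on no fixed scale. No source used here names the program. A second deposited transcript table holds estimated counts and TPM, and a deposited M4 gene table holds whole-number counts, in which 235 of the 374 members were matched (no Igkj or Iglj, and Iglc2 alone of the lambda constant genes). Counts were as deposited, and rounded to whole numbers for the count tests and V shares. Chi-square tests had 2 degrees of freedom, TMM sizes and trended dispersions from edgeR 4.0.16 (DESeq2 1.42.0 size factors as an alternative), a mean count of at least 10, and an adjusted p threshold of 0.05. The dispersion was estimated from the same 3 libraries. The test was tested on simulated data. Intervals are 95% Clopper-Pearson and cover counting error only. Symbols Ighv5-8 and Ighv1-13 each occur on 2 annotated genes. Named genes were all 12 constants, the 3 highest Ighv and Igkv genes of each library and all Iglv. List genes that were highest, lowest or called under both noise models were named too. Added after their values were seen were Sdc1, Cd79a, Ms4a1, Ebf1, Blk, Fcer2a, Prdm1, Irf4, Slamf7, Ikzf2, Il2ra, the Ighj genes and Igkj5. The members and lists were chosen with earlier results of these data known.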

Additional observations from a re-analysis of the deposited data

How the results depend on the processing

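No paired analysis was possible because there is 1 group. Values are means over the 3 libraries. In the M4 gene counts the immunoglobulin share rose from 0.192% to 0.359%, and as a share of TPM it was 0.380%. The kappa to lambda ratio went from 16.9 to 47.9 in the M4 counts, where Iglc2 is the only lambda constant gene matched, to 13.8 by TPM and to 33.7 by V genes. The effective number of Iglv genes, 1.27, was 1.54 in the second quantification and 1.61 in the M4 counts, and the share of the highest Iglv gene, 88.9%, was 79.8% and 76.9%. V counts per 100 constant counts went from 39.8 to 59.0 (second quantification), 61.9 (M4) and 78.9 (TPM) for kappa, from 4.47 to 28.6 by TPM for the heavy chain, and from 33.1 to 188 in the M4 counts for lambda. The number of members called against sampling noise, 62 of 62, was 114 of 171 with no count minimum and 13 of 13 at a mean of at least 50 counts. It was 94 of 95 in the second quantification and 101 of 101 in the M4 counts. The share of all genes called, 65.3%, was 32.4%, 74.2%, 60.4% and 72.6% in these settings in turn. The number tested differed by construction. The causes of the other differences were not tested.

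Against sampling noise, 68 of 71 members tested were called without replicate 1, 71 of 79 without replicate 2 and 25 of 28 without replicate 3. The shares of all genes called were 51.5%, 53.9% and 31.9%. Leaving out 1 library under the trended dispersion was an alternative added after seeing the data. Without replicate 1, 2 or 3 it called 13 of 56, 23 of 60 and 3 of 27 members tested. Of all genes it called 0.315%, 0.797% and 0.101%. The switched share ran from 5.61% without replicate 3 to 26.4% without replicate 2, the effective number of Ighv genes from 3.69 to 17.6 and of Igkv genes from 5.995 to 23.0, each lowest without replicate 3. The leading Ighv gene took 21.1 to 52.1% and the leading Igkv gene 13.3 to 33.5%, each lowest without replicate 2. V counts per 100 constant counts ran from 2.25 to 5.93 for the heavy chain and from 15.7 to 44.4 for lambda. Of 146 alternatives to single constant genes, 139 stayed within the spread between libraries (levels and shares) or within the interval of counting error (folds). Leaving out 1 of 3 libraries cannot move a mean by as much as that spread, so those alternatives were no test. The spread is also wide: without replicate 3 the mean Ighg2c share went from 5.28% to 0.0854% and its level from 112 to 1.42 TPM. The level of Ighm, 961 TPM, was 501 in the second quantification and 1348 from M4 counts per coding base, and that of Ighd, 16.1 TPM, was 9.01 and 23.9. In the M4 counts the Ighd share went from 1.56% to 0.917%, the Ighg2b fold from 113 to 222 and the Ighm fold from 1.31 to 1.22. Depth limits the lambda V values (17, 8 and 179 counts) and the IgG subclass mix of replicate 2 (39 counts).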
